A study of Mus musculus with 7 samples.

Results

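The T-lineage loci described here are 5 stretches of the mouse genome around 6 genes, Cd4, Cd8a, Cd8b1, Zbtb7b, Bcl11b and Gata3, which are known from T cells as genes under Runx3 control or as partners of that control. A peak, a stretch of DNA called as open chromatin by the study, was a member when its midpoint lay in one of 5 windows of the mm9 build: chr6:124800000-124860000 for Cd4, chr6:71260000-71370000 for Cd8a with Cd8b1, chr3:89160000-89230000 for Zbtb7b, chr12:109100000-109300000 for Bcl11b and chr2:9740000-9840000 for Gata3. This gave 43 of the 98723 peaks of the table, namely 4, 2, 10, 8 and 19 in that order, and together they held 0.0485% of all counts. The rule uses position only, and the windows were chosen with earlier results of these data known. The assay was Omni-ATAC-seq, where a transposase inserts sequencing tags into accessible DNA, on haematopoietic stem cells of C57BL/6 mice. Bone marrow of donors 24 months old, enriched for cKit, was infected with a control lentivirus (4 libraries, EV 1 to 4) or one that expresses Runx3 (3 libraries, Runx3 1, 3 and 4) and was transplanted into lethally irradiated recipients. Donor-derived cells that carried the vector (LSK cells with the phenotype CD45.2+, hCD2+, CD150+, CD48- and Flt3-) were sorted after 16 weeks, so both groups share the age of the donors, transduction, transplantation and the sort. The labels do not say whether libraries come from separate animals, and p-values therefore measure only the spread between these libraries, which may be technical.

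Runx3 belongs to the RUNX family of transcription factors, which bind DNA together with the partner protein Cbfb. In the thymus it directs cells toward the cytotoxic fate: it acts at enhancers of Cd8a and Cd8b1, which encode the chains of the CD8 coreceptor, and at silencers of Cd4, the helper coreceptor, and of Zbtb7b, which encodes ThPOK, the factor that sets the helper fate. Gata3 and Bcl11b encode factors of early T-cell development, Gata3 with a further role in helper cells and Bcl11b in commitment to the T lineage. Stem cells of the bone marrow are not T cells, and the comparison asked whether chromatin around these genes differed in stem cells that carried Runx3.

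RUNX proteins recognise the core letters TGTGGT or TGCGGT. In RefSeq promoters of GRCm38.p6, a later build than that of the peaks, 5 promoters of 4 of the 6 genes were found, each from 250 bases before to 50 after a gene start. The letters, on either strand, were in 2 of these 5 and in 22.4% of all 32851 promoters of this length in the table. The promoters holding them are printed here because they are those, among the 5 searched, that hold the letters, with the matches in capitals. In the first, which is the 250 bases before a Zbtb7b start, TGTGGT begins 89 bases before the start. In the second, the last 30 bases of the Cd8a promoter, the capitals read TGCGGT on the opposite strand and begin at base 44 of the transcript. The match in Cd8a thus lies after the start, and the promoters of Bcl11b and Gata3 and the other promoter of Zbtb7b held none of these letters.
Zbtb7b, GRCm38.p6 chr3:89387672-89387921, minus strand: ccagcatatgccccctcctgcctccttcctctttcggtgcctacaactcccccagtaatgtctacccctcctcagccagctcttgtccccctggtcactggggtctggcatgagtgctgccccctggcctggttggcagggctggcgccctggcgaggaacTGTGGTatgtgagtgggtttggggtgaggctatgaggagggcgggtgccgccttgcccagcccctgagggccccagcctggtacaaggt
Cd8a, GRCm38.p6 chr6:71373447-71373476, plus strand: ccccgaccctacacgcctcccccACCGCAc
Peaks were not placed on these promoters, since the builds differ. A match of letters says nothing here about binding.

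Total counts in peaks ran from 2188113 to 3758422 in the control libraries and from 1738164 to 2576715 in the Runx3 libraries, so the Runx3 group was shallower (mean 2238860 against 3113949). Levels are given as CPM, counts scaled by TMM to a common total over tested peaks, and 3 counts equal between 0.863 and 1.87 CPM depending on the library. Control 1 stood above the other controls in several sums below, and those values are also given without it. Control 1, control 2 and Runx3 1 shared 57 of all 98723 peaks at least 8-fold above every other library, with 0.5 CPM added to each level. Among these 57 were 0 of the 43 members, which at so small a share says nothing about them. Runx3 expression and the loci of stem-cell markers were not analysed here, so neither the vector label nor the sorted cell type was checked against the data.

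No peak at these T-lineage loci passed the test for a difference between the vectors. Of the 43 members, 28 had enough counts to be tested, and 0 passed (edgeR quasi-likelihood test, adjusted p under 0.05), where 0.0730% of all 57504 tested peaks passed. At an unadjusted p under 0.05 there was 1 member, lower with Runx3, or 3.57% of those tested, against 8.31% of all tested peaks in either direction and 4.40% in this one. DESeq2 and limma-voom also called 0 members, with 0 at an unadjusted p under 0.05 in both. Over all peaks, DESeq2 called 3 of 98723, with 3.25% at an unadjusted p under 0.05, and limma-voom called 5 of 57504, with 7.93%. The groups overlapped at each of the 28 tested members, while they were apart at 8.94% of all tested peaks. Over the 28, log2 fold changes had a median of 0.01, beside -0.01 for all tested peaks, and 13 of the 28 were below 0 (46.4%, against 51.2% of all). In such bulk samples, fewer cells with an open site and less opening per cell cannot be told apart.

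**Figure D1:**
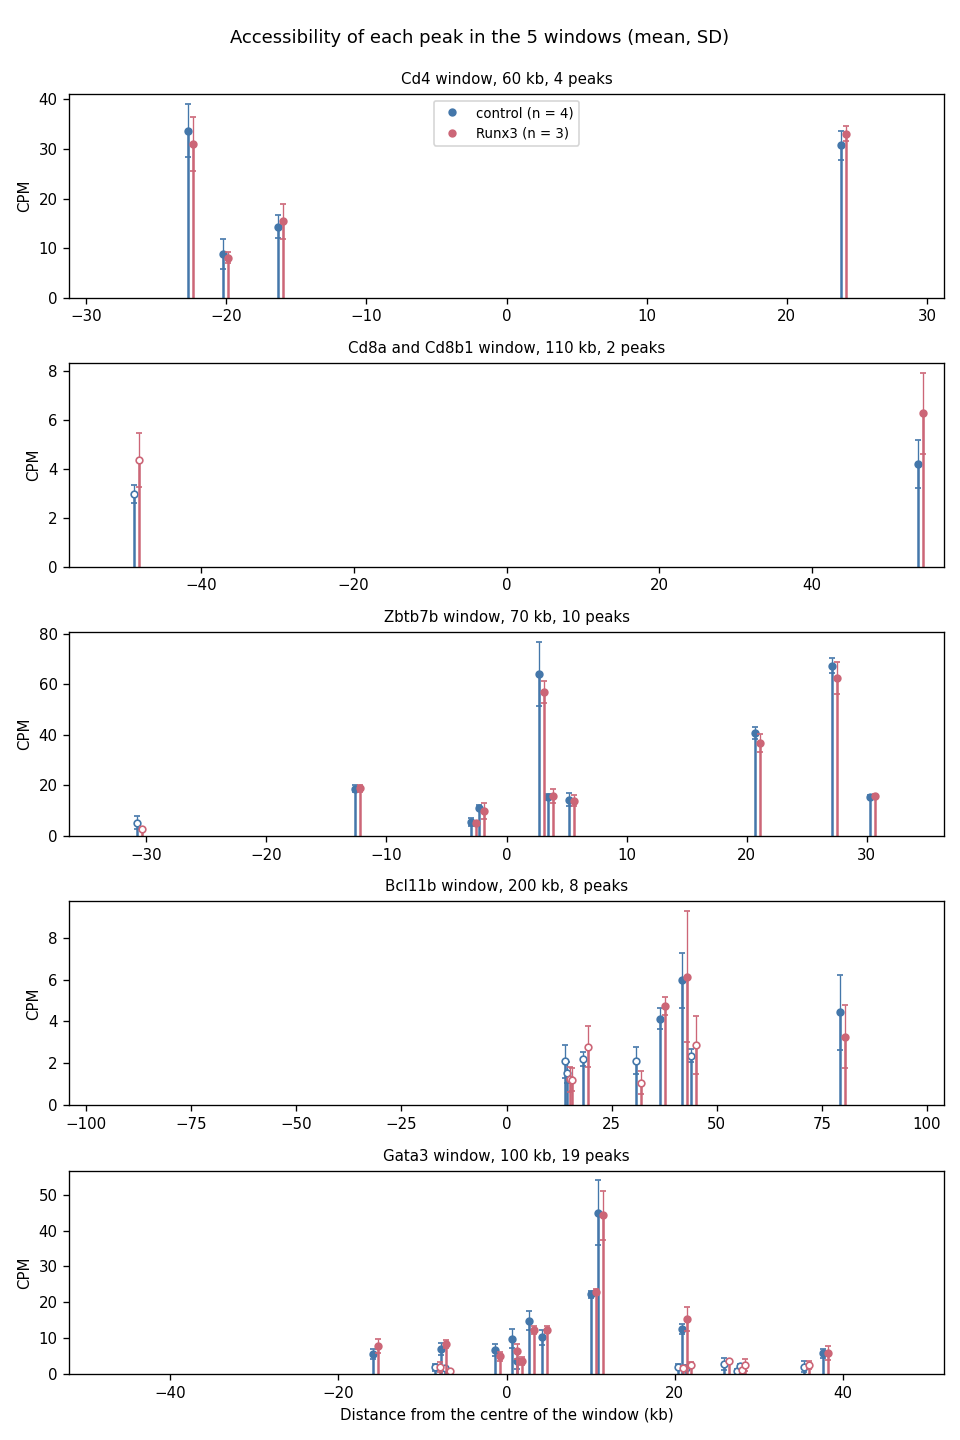
Mean accessibility of each of the 43 peaks (vertical axis, CPM, with SD) against its distance from the centre of its window (horizontal axis, kb), for control (blue, n = 4) and Runx3 (red, n = 3) libraries, with open circles for peaks not tested. Peaks stand at both ends of the Cd4 and the Cd8a and Cd8b1 windows with stretches of 39.3 kb and 102.1 kb between them that hold none. Red and blue stems, drawn side by side, reach 6.27 and 4.19 CPM at the tested CD8 peak and 33.1 and 30.8 CPM at Cd4 peak 4.

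The CD8 window was nearly free of peaks. Only 2 peaks lay in its 110 kb, one near each end, and the 102.1 kb between them (chr6:71266848-71368912) held none in the table. That is longer than 95.9% of all gaps between neighbouring peaks, whose median is 8.06 kb. Cd8b1 and Cd8a are next to each other in the gene order of the RefSeq table, between Gm1070 and Rmnd5a, so a peak at an edge of the window may belong to another gene. The table lists peaks only, and reads outside of them were not analysed here.

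Both CD8 peaks had few reads and higher means with Runx3, without passing a test. By mean CPM, peaks 1 and 2 stood at percentiles 39.8 and 52.5 of all peaks. Peak 2 of 2, at chr6:71368912-71369386, had 10, 9, 11 and 17 reads in controls 1 to 4 and 7, 17 and 16 in Runx3 1, 3 and 4. As CPM these were 5.16, 3.51, 3.20 and 4.89 against 4.37, 7.17 and 7.26, so that Runx3 3 and 4 lay above every control and Runx3 1 lay among them. Its log2 fold change was 0.63 ± 0.34 (SE), the highest value among the tested members, and it did not pass (edgeR adjusted p = 0.65). Peak 1, at chr6:71266441-71266848, was left out by the low-count filter, with 6, 7, 9 and 12 reads in controls and 9, 9 and 8 with Runx3. Its levels of 5.61, 3.79 and 3.63 CPM in Runx3 1, 3 and 4 were above all controls (2.62 to 3.45 CPM). Groups were apart, in either direction, at 8.12% of all peaks that the filter left out. Fitted without the filter it did not pass either (log2 fold change 0.49 ± 0.40, edgeR adjusted p = 0.83).

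Summed over both peaks, the CD8 window had 8.26, 6.23, 5.82 and 8.34 CPM in controls 1 to 4 and 9.98, 11.0 and 10.9 CPM in Runx3 1, 3 and 4. The lowest Runx3 library was above the highest control, and the ratio of the means, 7.16 ± 1.32 (SD, n = 4) to 10.6 ± 0.547 (SD, n = 3), was 1.48. The sum rests on 2 peaks with few reads and was not tested, and how often sums of windows elsewhere have groups apart was not examined. With the window widened by 50 kb on either side the log2 ratio went from 0.57 to -0.0615.

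The Cd4 window held 4 peaks, all tested, in 60 kb. Peaks 1 to 3 lay within the first part, between 124806937 and 124814276, and peak 4 stood alone behind 39.3 kb without a peak, near the other end. In the RefSeq order Cd4 lies between Gpr162 and Lag3, an inhibitory receptor gene that is also active in T cells, and which peak belongs to which gene was not determined. Peaks 1 and 4 held 73.4% of the signal of the window.

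Neither strong Cd4 peak passed the test. Peak 1, at chr6:124806937-124808021, was the most accessible, with 41.3, 33.1, 28.5 and 31.9 CPM in controls 1 to 4 and 31.2, 36.3 and 25.4 CPM in Runx3 1, 3 and 4. The ranges overlap in part, with control 1 the highest and Runx3 4 the lowest of the 7. The log2 fold change was -0.10 ± 0.16 (SE, edgeR adjusted p = 0.94), with its sign turned without control 1 or without Runx3 4. Peak 4, at chr6:124853581-124854469, had 34.1, 32.3, 28.8 and 27.9 CPM in controls and 33.7, 34.1 and 31.3 CPM with Runx3. Its log2 fold change was 0.12 ± 0.15 (edgeR adjusted p = 0.91). Fitted with library depth as a covariate it was -0.0100. Peaks 2 and 3 had log2 fold changes of -0.10 and 0.10. The sum of the window was 87.7 ± 12.3 CPM in controls (SD, n = 4), with control 1 at 105.9 CPM and the others at 80.0 to 84.5 CPM, and 87.4 ± 8.89 CPM with Runx3 (SD, n = 3). The log2 ratio of these means was -0.0040, and 0.10 without control 1.

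The Zbtb7b window was the most open of the 5. It held 10 peaks in 70 kb, or 14.3 per 100 kb where the whole table has 3.74, and 9 were tested. Zbtb7b lies between Dcst2 and Lenep in the RefSeq order, in a stretch dense with genes, so these peaks include sites that need not act on Zbtb7b. Peaks 5, 8 and 9 were among the top 10% of all peaks by CPM, and the 2 strongest held 50.6% of the signal of the window.

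**Figure D2:**
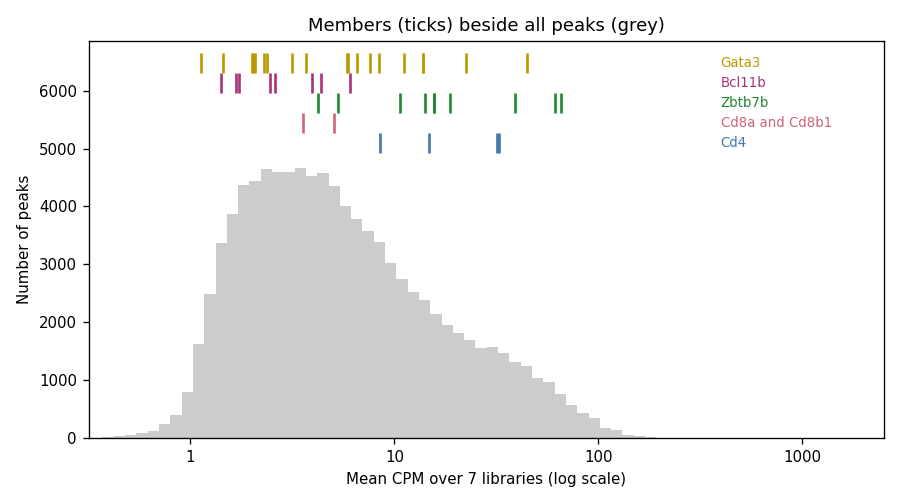
Mean CPM over the 7 libraries (horizontal axis, log scale) of all 98723 peaks as a grey histogram (vertical axis, number of peaks), with each of the 43 members as a coloured tick in a row per window. The Zbtb7b ticks reach 65.3 CPM, while those of Bcl11b end at 6.04 CPM and those of the CD8 window at 5.08 CPM.

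At the strong Zbtb7b peaks the means with Runx3 were slightly lower, within the spread of the libraries. Peak 9, at chr3:89221887-89222785, was the most accessible member of all, with 70.7, 67.4, 67.8 and 63.8 CPM in controls 1 to 4 and 58.6, 59.0 and 69.9 CPM in Runx3 1, 3 and 4. Runx3 1 and 3 lay below every control and Runx3 4 lay above 3 of the 4, and the log2 fold change was -0.10 ± 0.12 (SE, edgeR adjusted p = 0.90). It ran from -0.0586 without Runx3 3 to -0.19 without Runx3 4. Peak 5, at chr3:89197493-89198320, had the smallest p of the window. Its levels were 82.1, 60.8, 52.4 and 61.2 CPM in controls and 58.0, 60.7 and 52.2 CPM with Runx3, where control 1 stands above all others. The log2 fold change was -0.15 ± 0.13 (edgeR adjusted p = 0.84). It was -0.0243 without control 1, -0.24 without control 3 and -0.36 with library depth as a covariate, where the unadjusted p was 0.0192 (edgeR adjusted p = 0.389). The other tested peaks ranged from -0.15 to 0.04.

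The Zbtb7b sum was 284.5, 253.9, 246.0 and 248.7 CPM in controls 1 to 4 and 235.2, 238.6 and 241.9 CPM in Runx3 1, 3 and 4, so every Runx3 library was below every control. The groups were only narrowly apart, with control 3 at 246.0 and Runx3 4 at 241.9 CPM. Counting error of these sums was not worked out. The ratio of the means, 258.3 ± 17.8 (SD, n = 4) to 238.6 ± 3.36 (SD, n = 3), was 0.924, or -0.11 on the log2 scale. Without control 1 it was -0.0648. Within control 1, control 2 and Runx3 1 it was -0.20, and within the other 4 libraries it was -0.0418. The sum was not tested, and how often groups are apart in sums of windows elsewhere was not examined. Groups were apart at 0 of the 9 tested peaks of this window, against 8.94% of all tested peaks. For all peaks together the log2 ratio was -0.0109. Peak 1 of this window, at chr3:89164098-89164725, was left out by the filter with 5 to 23 reads, of which control 2 gave the most. All 3 Runx3 libraries (2.11 to 3.74 CPM) were below all controls (3.78 to 8.96 CPM), and without the filter its log2 fold change was -0.89 ± 0.42 (edgeR adjusted p = 0.60, unadjusted 0.0402).

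**Figure D3:**
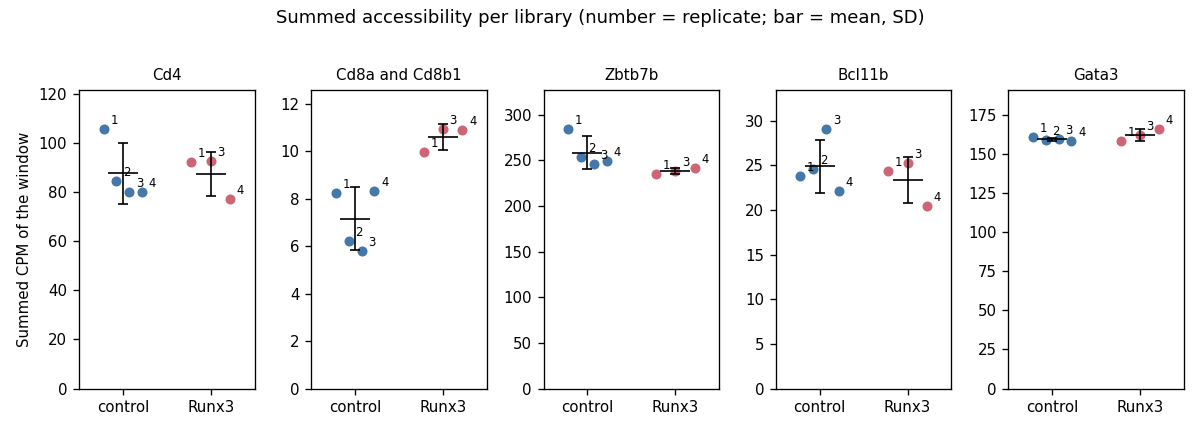
Summed CPM of the member peaks in each window (vertical axes, from 0, one panel per window) for each control (blue) and Runx3 (red) library, numbered by replicate, with the mean and SD in black. The groups are apart in the CD8 panel (5.82 to 8.34 against 9.98 to 11.0 CPM) and narrowly in the Zbtb7b panel, and overlap in the other 3.

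Around Bcl11b, the peaks were weak. The 200 kb window held 8 peaks, or 4 per 100 kb where the whole table has 3.74. Of these, 7 lay between 109214456 and 109244681 and 1 apart, all in the same side of the window. Each of the 8 had at most 27 reads in any library. Only 3 were tested, and 1 of the 8 lay above the median level of all peaks. Setd3 is the next protein-coding gene to one side of Bcl11b in the RefSeq order.

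None of the 3 tested Bcl11b peaks passed. Peak 6, at chr12:109242128-109242550, was the highest, with 5.16, 5.06, 7.86 and 5.75 CPM in controls 1 to 4 and 6.86, 8.85 and 2.72 CPM in Runx3 1, 3 and 4. The Runx3 libraries held both the highest and the lowest value, and the log2 fold change was 0.01 ± 0.34 (SE, edgeR adjusted p = 0.997). Peak 8, at chr12:109279808-109280157, had 2.07, 5.84, 5.82 and 4.03 CPM in controls and 4.99, 2.53 and 2.27 CPM with Runx3. Control 1 was the lowest of all 7, and the log2 fold change was -0.56 ± 0.43 (edgeR adjusted p = 0.80). In the fits without a single library that still tested it, it ran from -0.36 without Runx3 4 to -0.92 without Runx3 1. Peak 5 had a log2 fold change of 0.19. The sum of the window was 24.9 ± 2.99 CPM in controls (SD, n = 4) and 23.4 ± 2.58 CPM with Runx3 (SD, n = 3), with overlapping groups. Its log2 ratio was -0.09, and it was -0.0078 without control 3 and -0.0041 without Runx3 4.

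Gata3 had the densest set, with 19 peaks in 100 kb, of which 11 were tested. Its longest gap was 8.95 kb, close to the median gap of the table, and neighbouring peaks were a median of 1258 bases apart. At 5 places they were under 200 bases apart, so these members are not separate sites in the sense of independent measurements. Peaks 8 to 11 stood side by side with 11.1 to 44.6 CPM, and 10 of the 19 were above the median level of all peaks. Taf3 and Celf2 are the neighbouring protein-coding genes in the RefSeq order.

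The sum over the Gata3 window was almost the same in every library. It was 160.6, 158.9, 159.5 and 158.1 CPM in controls 1 to 4 and 158.5, 161.9 and 166.1 CPM in Runx3 1, 3 and 4. The group means were 159.3 ± 1.03 (SD, n = 4) and 162.2 ± 3.83 CPM (SD, n = 3), and the ranges overlap. Counting error of these sums was not worked out, so how constant the locus is cannot be read from their closeness. The strongest peak, 11 of 19 at chr2:9800769-9801580, had 58.3, 40.1, 39.0 and 42.3 CPM in controls and 36.8, 45.5 and 50.4 CPM with Runx3. Its log2 fold change, 0.01 ± 0.15 (SE), with an edgeR adjusted p of 0.99, had a 95% interval of 0.824-fold to 1.24-fold.

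Single Gata3 peaks, which hold fewer reads, varied more than their sum. Peak 6, at chr2:9790861-9791067, was the 1 member with an unadjusted p under 0.05 (0.0435). It had 10.3, 6.23, 10.5 and 12.7 CPM in controls 1 to 4 and 4.37, 8.43 and 6.35 CPM in Runx3 1, 3 and 4. Control 2 lay below Runx3 3 and 4, so the groups overlap. The log2 fold change was -0.61 ± 0.29 (SE), and it did not pass (edgeR adjusted p = 0.58). It was -0.26 with library depth as a covariate (unadjusted p = 0.492), -0.76 with a replicate block (0.0129) and -0.69 with the library set as a term (0.0194), and its adjusted p was 0.442 or higher in every alternative. The unadjusted p was between 0.0123 and 0.178 when single libraries were left out. Peak 1, the first of the same window, had 0.55 ± 0.31 on the log2 scale (SE, edgeR adjusted p = 0.67). It is named after its values were seen, as the highest value of the window. The remaining tested peaks lay between -0.42 and 0.28. The small differences within this window thus pointed in both directions, 4 of 11 below 0.

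**Figure D4:**
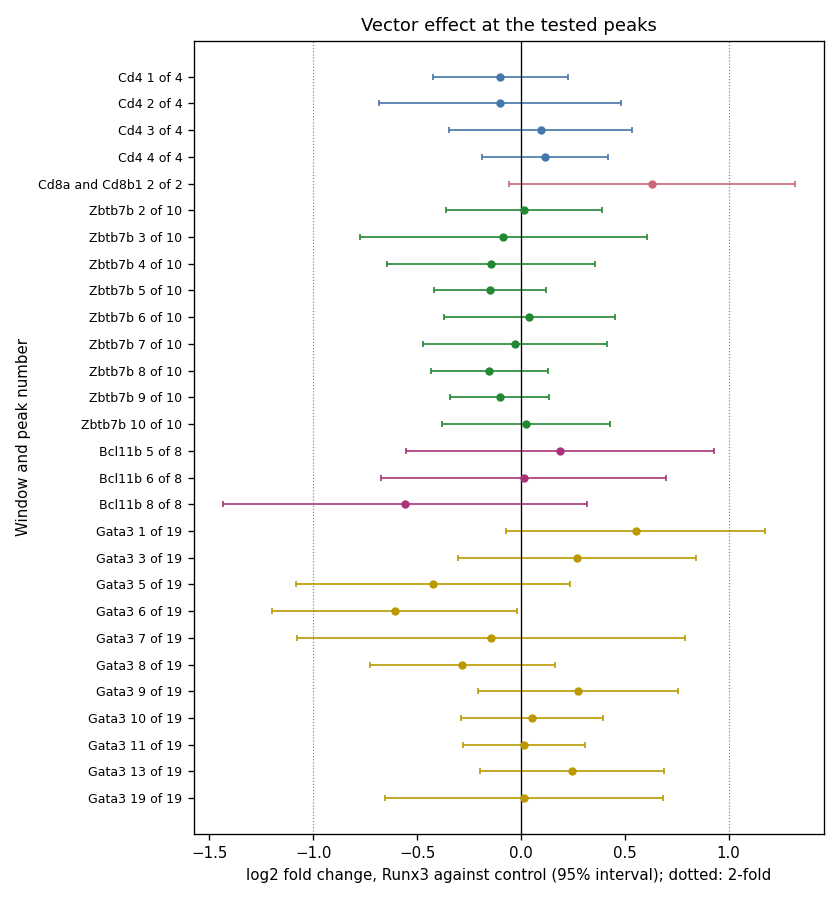
Log2 fold change of Runx3 against control with its 95% interval (horizontal axis) for the 28 tested peaks (vertical axis, window and peak number in order along the chromosome), coloured by window, with dotted lines at 2-fold. The interval of 27 peaks includes 0, that of Gata3 peak 6 ends just below it, and the intervals of 22 peaks stay within 2-fold either way.

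How large a difference could be seen depended on the window. The 95% interval of the fitted change lay within 2-fold either way at 22 of the 28 tested members and within 1.5-fold at 12, and all 28 lay within 3-fold. Over all tested peaks these shares are 75.7%, 31.7% and 97.0%. Within 1.5-fold were 7 of 9 tested Zbtb7b peaks, 3 of 4 Cd4 peaks, 2 of 11 Gata3 peaks, 0 of 3 Bcl11b peaks and 0 of 1 CD8 peaks. At Zbtb7b peak 9 the interval was 0.789-fold to 1.10-fold. At the tested CD8 peak it was 0.961-fold to 2.50-fold, so a rise beyond 2-fold could not be told from none there. At Bcl11b peak 8 it was 0.370-fold to 1.25-fold, which leaves the same limit for a fall. Intervals stayed within 2-fold at 7 of the 11 tested Gata3 peaks. The intervals come from the edgeR fit and are approximate.

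The 15 members not tested had between 1 and 23 reads in a library and mean levels of 1.13 to 4.21 CPM. They were 8 at Gata3, 5 at Bcl11b, 1 at Zbtb7b and 1 in the CD8 window. Groups were apart at 4 of them, 1 higher and 3 lower with Runx3, where 8.12% of all peaks left out by the filter had groups apart. Besides the CD8 and Zbtb7b peaks given above these were Bcl11b peak 4 (1 to 6 reads) and Gata3 peak 4 (1 to 7 reads), named after their values were seen. Fitted without the filter, none of the 15 passed, with edgeR adjusted p from 0.596 to 0.995, and 8 were lower and 7 higher. The Zbtb7b peak was the 1 with an unadjusted p under 0.05. In that fit, 0.0739% of all 98723 peaks passed and 7.96% had an unadjusted p under 0.05.

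Levels differed more between most windows than between the vectors. Per kb of peak, the mean level was 41.4 CPM at Zbtb7b (38.9 to 47.1 over the 7 libraries), 28.8 at Cd4 (25.3 to 34.8), 23.4 at Gata3 (23.0 to 24.2), 10.1 at Bcl11b (8.54 to 12.2) and 9.81 in the CD8 window (6.61 to 12.4), beside 21.6 for all peaks. The ranges of neighbours in this order were apart down to Gata3 and Bcl11b, and those of Bcl11b and the CD8 window overlapped. Peaks covered 8.63% of the Zbtb7b window, 6.87% of the Gata3 window, 5.08% of the Cd4 window, 1.20% of the Bcl11b window and 0.801% of the CD8 window. The Cd4 and Zbtb7b windows thus held more open chromatin in these sorted cells than the CD8 and Bcl11b windows. This is a statement about windows only, since which peaks belong to which gene was not determined.

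As a description of likeness, the sum of each window was compared over the 7 libraries with 27500 tested peaks elsewhere of at least 10 CPM. The closest was chr11:95375620-95376238 for Cd4 (Pearson r = 0.996) and chr17:88908199-88909009 for Zbtb7b (r = 0.990). For the CD8 window it was chr18:38184564-38185914 (r = 0.987), for Gata3 chr14:41730993-41731626 (r = 0.979) and for Bcl11b chr4:42353212-42354656 (r = 0.964). Each of these is the highest of 27500 values over only 7 libraries, so a high r can arise without any relation. The 7 points also share depth and scaling, and no r was tested. Of the 27500 peaks, 300 had r over 0.9 with the Cd4 sum and 34 with the Bcl11b sum.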

How the data were processed

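The deposited table holds raw counts of reads per peak. The build (mm9) and the tools MACS2, Picard, SAMtools, Bowtie2, FastQC and Trim Galore come from the submitters' processing notes. Versions, order, the making of the shared peak set and any transposase shift are, for this table, not given in the sources used here. Whether starts count from 0 or 1 is not stated. The windows, lists and tests were chosen with earlier results of these data known.

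Peaks were kept by filterByExpr (minimum count 10, total 15), which left 57504 peaks with 91.6% of counts. edgeR 4.0.16 in R 4.3.3 (TMM, robust quasi-likelihood test, Benjamini-Hochberg over all tested peaks, threshold 0.05) compared 3 Runx3 with 4 control libraries without covariates. The SE is the log2 fold change divided by the square root of F. Sums over windows use all member peaks and carry no test. Named peaks are, per window, the tested peak with the highest mean CPM, that with the smallest p and any with an unadjusted p under 0.05. Counts carry no molecular identifiers. The levels of 3 counts are only the CPM that 3 reads equal in a library, not a measure of error. Intervals of fold changes come from the edgeR fit and reflect the spread between these libraries. Libraries of a group differed by more than sampling noise, at 1.19 to 2.59 chi-square per degree of freedom, so none was treated as a copy. Alternatives used limma 3.58.1 and DESeq2 1.42.0, other scaling and filters, a replicate block, the library set, depth, wider windows and left-out libraries. Coordinates of the GRCm38.p6 gene table were not used for peaks.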

Additional observations from a re-analysis of the deposited data

Results flagged for a closer look

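The strongest Gata3 peak, chr2:9800769-9801580, had 58.3 CPM in control 1 and 39.0 to 42.3 CPM in the other 3 controls. The gap took 0.831 of the range of the 4 controls, just above Dixon's critical value for 4 samples. Of 14 values examined in this way this was the 1 that stood out, where chance gives about 0.7.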

How the results depend on the processing

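In all 18 alternatives 0 members passed, and the smallest adjusted p was 0.37, reached with windows widened by 50 kb (92 peaks, 63 tested, 5 with an unadjusted p under 0.05, 4 of them lower, where 8.31% of all tested peaks are at that level). With the windows as given, between 25 and 43 members were tested and 0 to 3 had an unadjusted p under 0.05. Over all peaks tested in each alternative, the share that passed ran from 0 (without control 2, and again without Runx3 1) to 0.466% (without control 1). The share at an unadjusted p under 0.05 ran from 3.25% (DESeq2) to 10.8% (without control 1). At such shares, 0 passing among so few members says little. With a replicate block, 0 members passed and 1 had an unadjusted p under 0.05, against 0.176% and 7.58% of all tested peaks. The replicate numbers were not taken as pairs, since the labels do not say that they pair libraries. Deviations of same-numbered libraries correlated at 0.126, 0.111 and 0.0673, and each Runx3 library correlated best with the control of its number. Control 4, in turn, correlated better with Runx3 3 (0.0971) than with Runx3 4, and control 2 correlated at 0.104 with Runx3 1. Whether the libraries were paired was not determined.

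Of the 9 named peaks, 5 kept their direction in every alternative that tested them. For Bcl11b peak 6 the log2 fold change went from 0.01 to -0.0922 with the replicate block, -0.0116 with the library set and -0.13 with limma-voom, and ran from -0.42 to 0.40 when single libraries were left out. For Gata3 peak 11 it went from 0.01 to -0.0173 with the replicate block, -0.10 with library depth (the total count) as covariate and -0.0045 with DESeq2, and ran from -0.0876 to 0.15 without single libraries. For Cd4 peak 1 it ran from -0.25 to 0.0350 without single libraries, and for Cd4 peak 4 it was -0.0100 with the covariate. The log2 ratio of the CD8 sum was -0.0615 with wider windows, where added peaks enter the sum. Within control 1, control 2 and Runx3 1, the log2 ratio was -0.20 for the Zbtb7b sum and -0.0116 for the Gata3 sum (0.0258 with all libraries). What caused these shifts was not tested. Low counts limit what can be seen at Bcl11b, in the CD8 window and at some Gata3 peaks.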
